A study of Mus musculus with 6 samples.

Results

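The genes described here are the ephrin, Slit and netrin families of guidance cues with their receptors, 39 genes that were chosen by name and looked up in a table of 39179 Ensembl genes. They fall into 15 ligands (5 ephrin-A, 3 ephrin-B, 3 Slit and 4 netrin genes) and 24 receptors (9 EphA, 5 EphB, 4 Robo and 6 netrin receptor genes), and all 39 symbols matched an identifier in the count files. Messenger RNA was sequenced from the sensory epithelium of the cochlea, where the inner ear detects sound, and from that of the vestibule, where it detects motion and gravity. There were 3 libraries per tissue, all from wild-type C57Bl/6J mice at P0, the day of birth, with males and females pooled. The series describes the dissection of 20 inner ears from 10 mice, and RNA of many organs was pooled before sequencing. The sources do not tell whether the 3 libraries of a tissue came from separate pools, so the p-values measure only the spread between these libraries, which may be technical.

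Guidance cues are proteins that tell growing axons and moving cells where to go and where to stop. Ephrin-A ligands are tied to the membrane by a lipid anchor and ephrin-B ligands span it, and both bind Eph receptors, a large family of receptor tyrosine kinases, on a touching cell, with signals possible in both cells. Slits are secreted proteins that mostly repel through Robo receptors. Netrins are laminin-related secreted proteins that attract through Dcc and neogenin and repel through Unc5 receptors, while the netrin-G proteins stay bound to the membrane and use receptors of their own. In the inner ear, Eph and ephrin signals are known for sorting auditory from vestibular nerve fibres and inner from outer hair cell innervation, and netrin 1 for the shaping of the semicircular canals.

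Each library held between 24464483 and 33664793 counts on genes, so that 1 CPM (counts scaled to the library's counts on genes) stood for 24.5 to 33.7 counts. All 9 hair cell markers and all 7 supporting cell markers searched were detected in all 6 libraries. Of the hair cell markers, 5 were called as higher in the vestibule and 1 in the cochlea, with sums of 1042 to 1229 and 646 to 790 normalised CPM. The supporting cell markers were all 7 called as higher in the cochlea, with sums of 1349 to 1535 normalised CPM and of 485 to 541 in the vestibule. These shifts run along with the tissue difference of every gene below, and their part in it was not tested. Cochlea replicate 3 stood apart from the other libraries of its tissue in muscle and neuronal markers. The summed level of 7 skeletal muscle markers was 289 normalised CPM in it, against 4.22 to 26.1 in the other 5 libraries. The 9 neuronal markers summed to 610, 602 and 193 normalised CPM in the cochlea and to 324, 103 and 141 in the vestibule, so their level differed from library to library within a tissue, and 4 of the 8 tested were called as higher in the cochlea. Each of the 9 had counts in all 6 libraries, with Neurod1, the marker not tested, at only 0.038 to 0.29 normalised CPM. In RNA from whole epithelium, fewer cells of a type and less RNA per cell cannot be told apart.

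Of the 39 genes, 37 reached 1 CPM in 3 or more libraries and were tested, among them all 15 ligands and 22 of the 24 receptors. The genes below this level were Epha6 and Robo3. Epha6, an EphA receptor, had 10, 6 and 3 counts in the cochlea, against 19, 6 and 17 in the vestibule. Robo3, a divergent Robo receptor of commissural neurons, had 0, 0 and 2 counts in the cochlea, against 4, 2 and 1 in the vestibule. A count of 0 allows a level of up to 0.125 normalised CPM in cochlea replicate 1 and 0.113 in cochlea replicate 2, and such limits cover counting error only.

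The tissues differed in 18 of the 37 genes tested, with 12 higher in the cochlea and 6 higher in the vestibule. Calls were made at a false discovery rate of 0.05 (quasi-likelihood test of edgeR, p-values adjusted by Benjamini-Hochberg over 14723 genes). Over all genes tested, 27.4% were called, 11.6% as higher in the cochlea and 15.8% as higher in the vestibule. Each log2 fold change is the vestibule minus the cochlea, and genes with more RNA in the cochlea have negative values. Their median was -0.36 over the 37 genes and 0.00 over all genes tested. In 13 of the 37 the 3 cochlear libraries all lay above the 3 vestibular ones, and in 7 all lay below, against 41.8% of all genes tested that separated in either direction.

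Among the ligands, Efna2, Efna3, Slit1 and Slit3 were higher in the cochlea, Efna5, Ntn1 and Ntn4 were higher in the vestibule, and 8 did not pass the test. The median over the 15 ligands was -0.31. It was -0.40 without vestibule replicate 1, -0.22 without cochlea replicate 3 and -0.19 without vestibule replicate 3. Libraries scaled by their totals alone gave -0.18. Among the receptors, Epha3, Epha4, Epha7, Ephb6, Robo2, Neo1, Unc5b and Unc5d were higher in the cochlea, Epha1, Ephb1 and Robo4 were higher in the vestibule, and 11 did not pass. The median over the 22 receptors tested was -0.43, and it was -0.29 without vestibule replicate 2. The 4 ligand calls for the cochlea became 2 when libraries were scaled by their totals alone, which moved the median of all genes to 0.13, and the split of ligand calls between cochlea and vestibule was then 2 to 3. Those 4 calls also became 2 without cochlea replicate 2, 2 without vestibule replicate 1, 1 without vestibule replicate 2 and 2 without vestibule replicate 3. The 3 receptor calls for the vestibule became 1 without cochlea replicate 1 and 1 without vestibule replicate 2. The 3 ligand calls for the vestibule were made under each of the 13 alternatives tried.

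**Figure D1:**
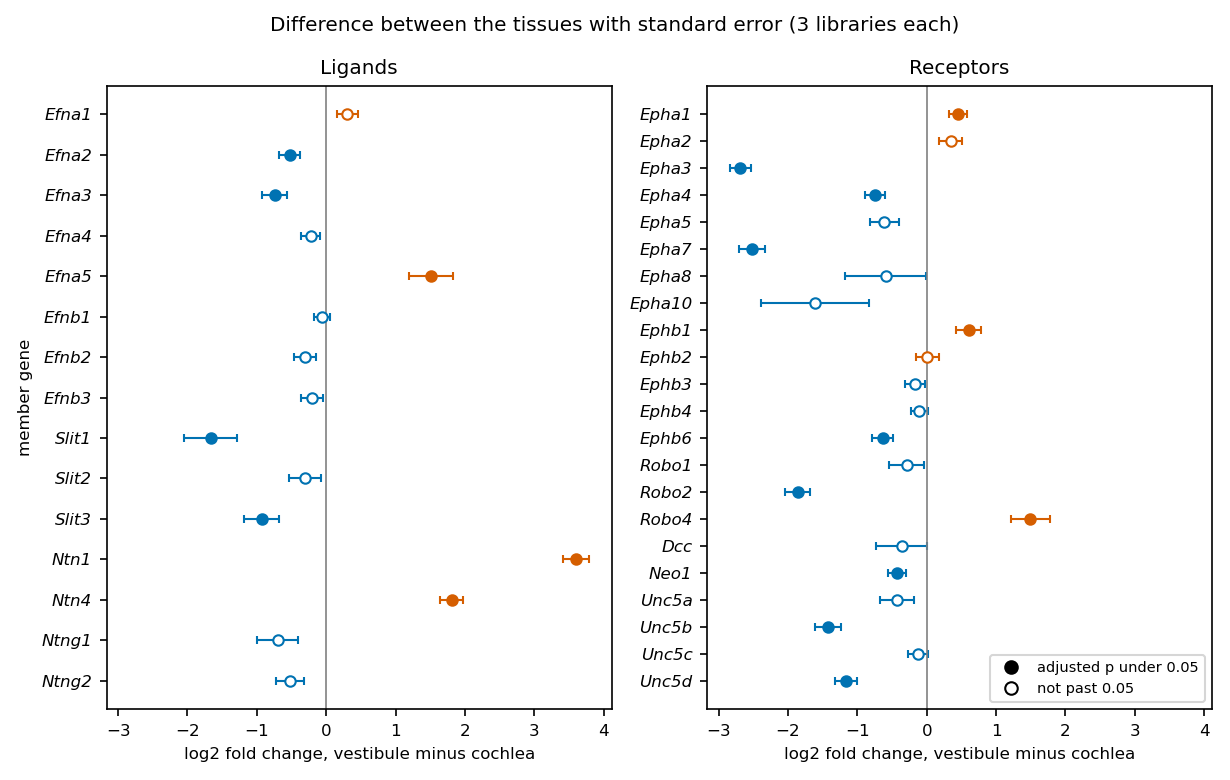
Log2 fold change, vestibule minus cochlea, of the 15 ligands (left) and 22 receptors (right) tested, 1 row per gene, with the standard error as bars, filled points for an edgeR adjusted p under 0.05, orange for positive and blue for negative values. Ntn1 lies farthest to the right at 3.60, and Epha3 and Epha7 lie farthest to the left at -2.69 and -2.51.

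The promoter sequence of the genes that differed most gives their genomic context. RefSeq promoter entries on GRCm38.p6 were found for 34 of the 39 genes, and Ntn1, Slit1, Efnb3, Unc5d and Dcc had none. The 250 bases upstream of the start site are shown, 5′ to 3′ on the strand of the gene, for the 2 genes with the largest difference in each direction that had an entry. Epha3 and Epha7 were higher in the cochlea, Ntn4 and Efna5 in the vestibule. Capitals mark the GC box, the 6 letters GGGCGG or their reverse complement CCGCCC, the motif known for binding Sp1.
Epha3, chr16:63864176-63864425, minus strand: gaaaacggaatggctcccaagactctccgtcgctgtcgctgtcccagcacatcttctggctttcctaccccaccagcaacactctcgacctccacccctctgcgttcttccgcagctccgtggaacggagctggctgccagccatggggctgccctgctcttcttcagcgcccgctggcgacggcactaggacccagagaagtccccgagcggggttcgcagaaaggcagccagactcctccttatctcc
Epha7, chr4:28812881-28813130, plus strand: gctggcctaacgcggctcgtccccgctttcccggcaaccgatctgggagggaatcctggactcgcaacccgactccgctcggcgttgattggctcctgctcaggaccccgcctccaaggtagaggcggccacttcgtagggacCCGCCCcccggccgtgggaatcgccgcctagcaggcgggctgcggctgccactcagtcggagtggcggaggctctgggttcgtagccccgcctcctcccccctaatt
Ntn4, chr10:93640799-93641048, plus strand: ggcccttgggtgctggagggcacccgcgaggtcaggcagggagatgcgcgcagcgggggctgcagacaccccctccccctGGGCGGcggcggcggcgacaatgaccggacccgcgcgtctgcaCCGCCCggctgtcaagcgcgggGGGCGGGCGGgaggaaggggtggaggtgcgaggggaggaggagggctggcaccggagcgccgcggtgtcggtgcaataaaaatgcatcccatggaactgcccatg
Efna5, chr17:62881318-62881567, minus strand: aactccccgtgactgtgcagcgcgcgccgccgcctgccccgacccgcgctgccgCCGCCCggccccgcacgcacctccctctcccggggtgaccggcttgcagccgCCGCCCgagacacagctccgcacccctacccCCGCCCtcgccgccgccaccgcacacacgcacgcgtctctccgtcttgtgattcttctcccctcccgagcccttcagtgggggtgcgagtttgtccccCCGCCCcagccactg
On both strands, with overlapping matches counted, the Epha3 window held 0 GC boxes, that of Epha7 held 1, and those of Ntn4 and Efna5 held 4 each. CpG dinucleotides numbered 16, 25, 26 and 32 in the same order. Windows of the other genes called as higher in the cochlea held from 0 GC boxes (Robo2) to 6 (Slit3). Those of the other genes called as higher in the vestibule held from 0 (Robo4 and Ephb1) to 3 (Epha1). A link between GC boxes and tissue was not tested. Over the 39 windows of the 34 genes, 69.2% held a GC box, against 33.0% of 32536 windows of the same length in the whole table. The median CpG count was 18, against 6 in the whole table. The letters TATAAA were found in a window of 2 genes, Efnb2 and Slit2, and in 12.3% of all windows.

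Of the netrin ligands, both secreted netrins were higher in the vestibule and both netrin-G genes failed the test. Ntn1, which encodes netrin 1, the founding member of the family, had 27.9, 29.7 and 37.6 normalised CPM in the cochlea, against 448, 366 and 339 in the vestibule. Its lowest vestibular library was far above its highest cochlear one. The means were 31.7 ± 5.18 and 384 ± 57.0 normalised CPM (SD, n = 3 each), a 12.1-fold difference in means with a log2 fold change of 3.60 (SE 0.18, edgeR adjusted p = 5.6e-06). Ntn4 encodes netrin 4, a basement membrane protein. It had 11, 9.65 and 11.5 normalised CPM in the cochlea, against 44.5, 35.9 and 32.3 in the vestibule. The groups did not overlap, and the log2 fold change was 1.81 (SE 0.17, edgeR adjusted p = 9.4e-05). Both genes were called under each of the 13 alternatives.

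The netrin-G genes encode membrane-anchored proteins of axons and synapses. Ntng1 had 21.3, 22.2 and 9.77 normalised CPM in the cochlea, against 11.3, 9.43 and 12.0 in the vestibule. Cochlea replicates 1 and 2 stood above the other 4 libraries, and replicate 3 lay among the vestibular ones. The log2 fold change was -0.70 (SE 0.29, edgeR adjusted p = 0.11), and it was -1.0 with an adjusted p of 0.003 without cochlea replicate 3. That library also had the lowest neuronal marker sum of the cochlea (193 normalised CPM, against 610 and 602), and the part of neuronal RNA in this value was not tested. Ntng2 had 25.2, 43.5 and 37.7 normalised CPM in the cochlea, against 24.4, 26.4 and 23.2 in the vestibule, with an overlap of cochlea replicate 1 with the vestibular range. Its log2 fold change was -0.52 (SE 0.20, edgeR adjusted p = 0.085), with an adjusted p of 0.013 without cochlea replicate 1 and 0.047 with DESeq2. Of the Ntng2 exon bases, 14% are shared with another gene on the same strand, and how reads in such bases were counted is not given in the sources used here.

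Of the 6 netrin receptors, Unc5b, Unc5d and Neo1 were called as higher in the cochlea and 3 did not pass the test. Unc5b, a repulsive netrin receptor also known from blood vessels, had 150, 196 and 249 normalised CPM in the cochlea, against 78.5, 76.0 and 66.8 in the vestibule. The groups did not overlap, and the log2 fold change was -1.42 (SE 0.19, edgeR adjusted p = 0.00068). Unc5d, a relative of Unc5b that also binds Flrt proteins, had 32.5, 31.7 and 31.0 normalised CPM in the cochlea, against 16.9, 12.3 and 13.2 in the vestibule. The cochlear libraries were close together, with a mean of 31.8 ± 0.728 (SD, n = 3), and all were above the vestibular ones. Its log2 fold change was -1.17 (SE 0.16, edgeR adjusted p = 0.00069). Both were called under each of the 13 alternatives.

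Neo1, which encodes neogenin, the receptor of netrins and of the repulsive guidance molecules, had 490, 542 and 564 normalised CPM in the cochlea, against 432, 372 and 383 in the vestibule. The groups did not overlap, but the difference was small, with a log2 fold change of -0.43 (SE 0.13, edgeR adjusted p = 0.044). The call was lost with each library left out. The adjusted p was 0.065 without cochlea replicate 1, 0.11 without cochlea replicate 2, 0.084 without cochlea replicate 3, 0.052 without vestibule replicate 1, 0.24 without vestibule replicate 2 and 0.11 without vestibule replicate 3, and it was 0.13 with library totals as the only scaling. The other netrin receptors did not pass the test. Unc5c had 34.4, 40.5 and 37.4 normalised CPM in the cochlea, against 38.2, 30.4 and 34.2 in the vestibule, and the 95% interval of its log2 fold change was -0.44 to 0.19. Unc5a lay between 5.38 and 10.1 normalised CPM in the 6 libraries. Dcc, the main attractive netrin receptor of commissural axons, was the least abundant of the 6 per length and had 1.11 to 3.17 normalised CPM, and its interval was wide (-1.20 to 0.48).

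**Figure D2:**
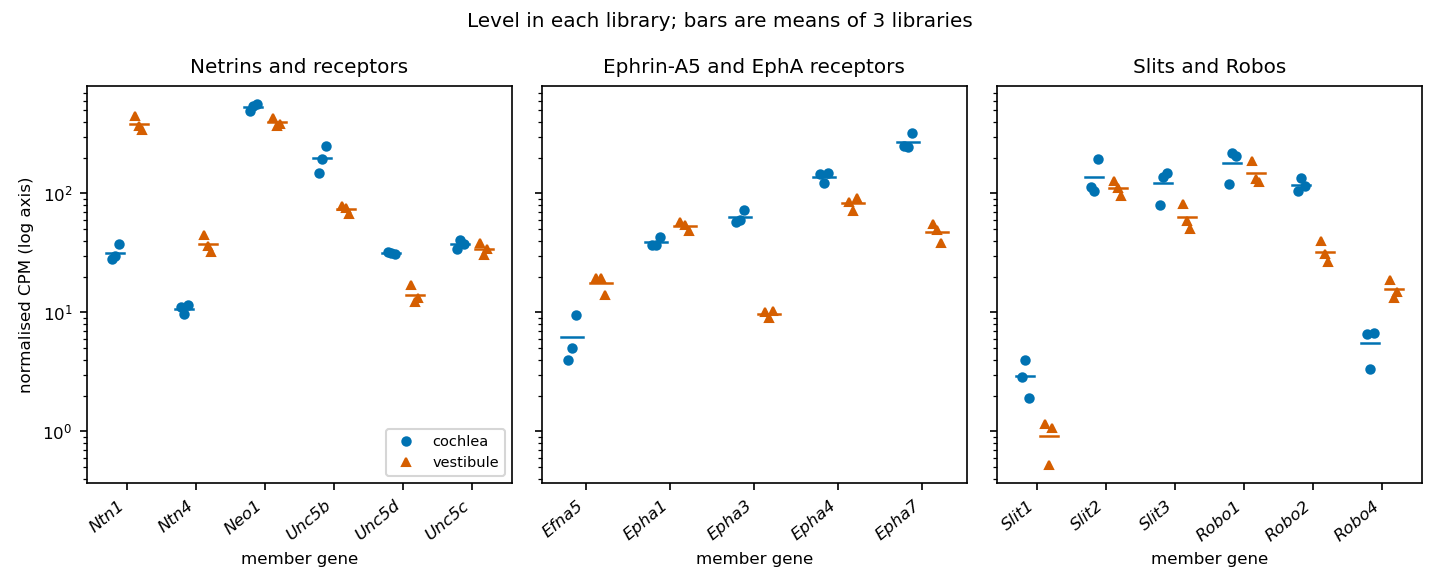
Normalised CPM of 17 guidance genes in each of the 6 libraries on a log axis, with circles for the cochlea, triangles for the vestibule and a bar at the mean of the 3 libraries of a tissue. Ntn1 lies at 27.9 to 37.6 in the cochlea, against 339 to 448 in the vestibule, and Epha3 lies at 57.1 to 72.3 in the cochlea, against 9.06 to 10.2 in the vestibule.

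Per length of gene, Ntn1 was set against the 6 netrin receptors. In the deposited RPKM (reads scaled to gene length and library size), Ntn1 stood at 0.173, 0.141 and 0.141 times the level of Unc5b in the 3 cochlear libraries and at 5.33, 4.49 and 4.73 times in the vestibular ones. Against Neo1 the ratio was 0.0669, 0.0644 and 0.0785 in the cochlea, against 1.22, 1.16 and 1.04 in the vestibule. Netrin 1 RNA was thus below Unc5b and Neo1 in all cochlear libraries and above both in all vestibular ones. Without regard to length, in normalised CPM, Neo1 was above Ntn1 in vestibule replicate 2 (372 against 366) and vestibule replicate 3 (383 against 339). In RPKM the order did not change for the other 4 receptors, since Ntn1 was above Unc5a, Unc5c, Unc5d and Dcc in all 6 libraries. The closest of these in the cochlea was Unc5d, at 3.57, 3.28 and 3.42 RPKM, with Ntn1 at 4.35, 4.36 and 5.89. In normalised CPM, Unc5c (34.4 and 40.5) and Unc5d (32.5 and 31.7) were above Ntn1 (27.9 and 29.7) in cochlea replicates 1 and 2. Both were below Ntn1 in cochlea replicate 3 and in all vestibular libraries. Ntn1 made up 25.2% ± 4.15 of the summed RPKM of the 4 netrin ligands in the cochlea and 76.9% ± 0.934 in the vestibule (SD, n = 3 each). Ntng2 held the largest share in the cochlea, 43.6% ± 6.93, and 7.87% ± 1.04 in the vestibule. Neo1 led the receptors in both tissues, with 63.1% of their summed RPKM in the cochlea and 74.2% in the vestibule.

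The ephrin-A ligands went in both directions, with Efna2 and Efna3 higher in the cochlea and Efna5 in the vestibule. Efna5, an ephrin-A known for the sorting of axons in topographic maps, had 3.97, 5.01 and 9.59 normalised CPM in the cochlea, against 19.7, 19.3 and 14 in the vestibule. The cochlear libraries spread widely but stayed below all vestibular ones. The log2 fold change was 1.51 (SE 0.32, edgeR adjusted p = 0.0082), and the gene was called under each of the 13 alternatives. Efna2 had 21.8, 17.0 and 19.9 normalised CPM in the cochlea, against 12.9, 14.6 and 13.1 in the vestibule, without overlap. Its log2 fold change was -0.53 (SE 0.15, edgeR adjusted p = 0.032). This call held with only 1 of the libraries left out, with adjusted p of 0.11 without cochlea replicate 1, 0.056 without cochlea replicate 3, 0.12 without vestibule replicate 1, 0.1 without vestibule replicate 2 and 0.081 without vestibule replicate 3, and 0.1 with library totals as the only scaling.

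Efna3 had 7.44, 6.98 and 6.45 normalised CPM in the cochlea, against 4.02, 4.07 and 4.36 in the vestibule. The groups did not overlap and each was narrow, and the log2 fold change was -0.74 (SE 0.18, edgeR adjusted p = 0.016). The adjusted p was 0.053 without cochlea replicate 1, 0.06 without vestibule replicate 1 and 0.091 without vestibule replicate 2. Efna3 lies between Efna1 and Efna4 on chromosome 3 of GRCm38, at 89313899 to 89322965, with Efna1 at 89271733 to 89281142 and Efna4 at 89333390 to 89338028. The neighbours did not pass the test. Efna1, the most abundant ephrin-A per length in the mean of each tissue (Efna4 led in cochlea replicate 3, with 35.9% of the summed RPKM against 32.5%), had 32.7, 38.3 and 27.1 normalised CPM in the cochlea, against 42.2, 37.8 and 41.1 in the vestibule, with overlap and a log2 fold change of 0.30 (95% interval -0.04 to 0.65, edgeR adjusted p = 0.18). Efna4 lay between 19.8 and 26.5 normalised CPM in all libraries, with a log2 fold change of -0.23 (edgeR adjusted p = 0.26). Genes on the opposite strand overlap 14.1% of the exon bases of Efna3 and 10.5% of those of Efna4, and the strand setting of the counting is not given in the sources used here, so reads of such pairs may be mixed.

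None of the 3 ephrin-B ligands passed edgeR's quasi-likelihood test, and none had an unadjusted p under 0.05. DESeq2 and limma-voom called 0 of the 3 as well. Efnb2, the arterial ephrin-B, was the most abundant per length in the deposited RPKM. Its rank rests on a length of 4316 bases, against 6855 in the joined exons of GENCODE vM21. It had 152, 154 and 119 normalised CPM in the cochlea, against 136, 97.2 and 110 in the vestibule. The groups overlapped, and the 95% interval of its log2 fold change was -0.68 to 0.07. Efnb1 was the closest to equal, between 64.0 and 72.3 normalised CPM in all 6 libraries, with an interval of -0.33 to 0.20. Efnb3 lay between 45.9 and 67.9 normalised CPM, with an interval of -0.57 to 0.15.

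**Figure D3:**
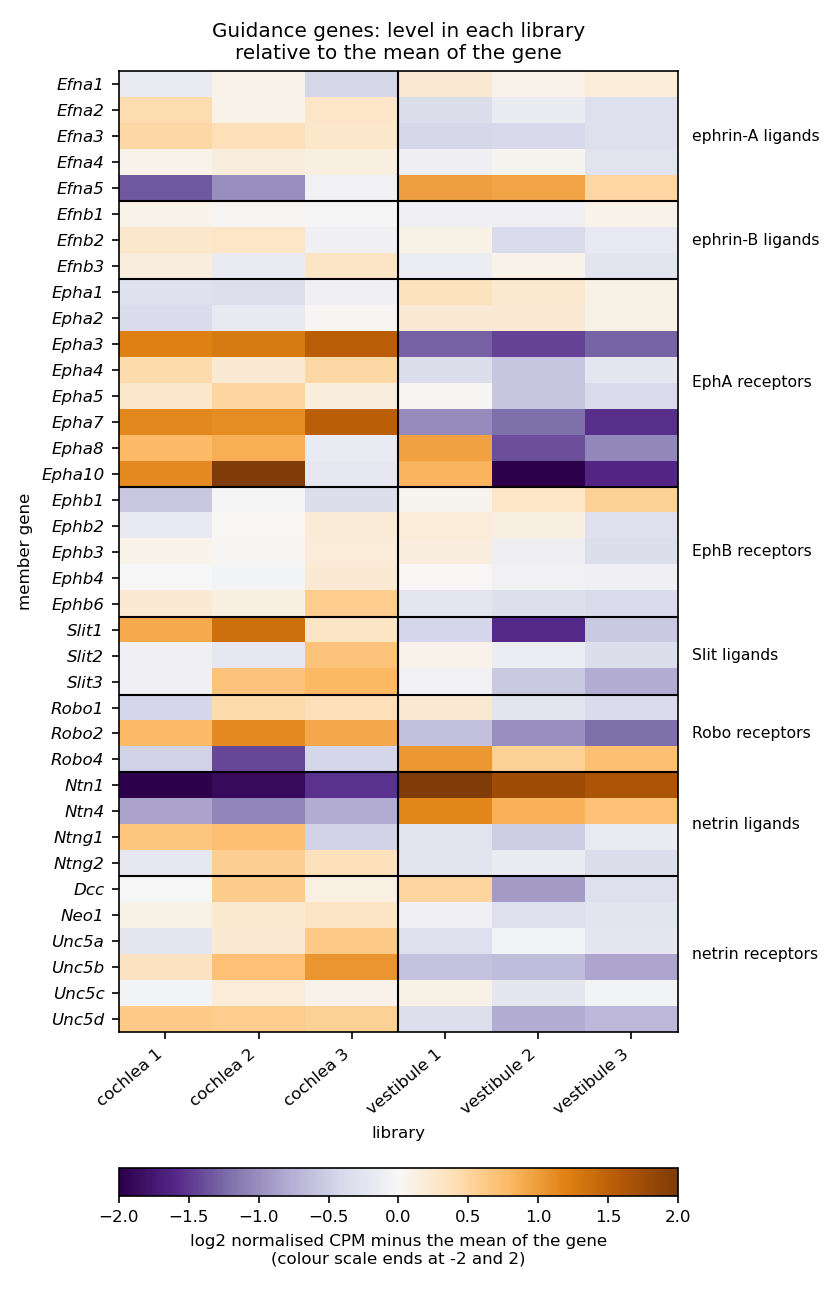
Level of each guidance gene tested in each of the 6 libraries, as log2 normalised CPM minus the mean of that gene over the libraries, with genes in rows by family, libraries in columns by tissue, and a colour scale from purple (low) to orange (high) that ends at -2 and 2. Ntn1 and Ntn4 are high in all 3 vestibular columns, and Epha3, Epha7 and Robo2 in all 3 cochlear ones.

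Of the 8 EphA receptors tested, 3 were higher in the cochlea and 1 in the vestibule. Epha3 and Epha7, which bind ephrin-A ligands, had the largest fold changes of the 22 receptors tested. Epha3 had 57.1, 59.7 and 72.3 normalised CPM in the cochlea, against 10.1, 9.06 and 10.2 in the vestibule. With means of 63.0 ± 8.15 and 9.79 ± 0.640 (SD, n = 3 each) the cochlea was 6.43 times higher, and the log2 fold change was -2.69 (SE 0.15, edgeR adjusted p = 6.5e-06). Epha7 had 248, 244 and 323 normalised CPM in the cochlea, against 55.7, 48.8 and 38.3 in the vestibule. Its means were 272 ± 44.2 and 47.6 ± 8.74, and the log2 fold change was -2.51 (SE 0.19, edgeR adjusted p = 3e-05). Epha4, a receptor unusual in binding ephrins of both classes, had 144, 123 and 148 normalised CPM in the cochlea, against 84.1, 71.7 and 91.1 in the vestibule. The log2 fold change of Epha4 was -0.75 (SE 0.14, edgeR adjusted p = 0.0044). In none of these 3 receptors did the groups overlap, and each was called under all of the 13 alternatives.

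Epha1, a receptor of epithelia, was the only EphA receptor called as higher in the vestibule. It had 37.2, 36.5 and 43.0 normalised CPM in the cochlea, against 57.5, 53.8 and 48.7 in the vestibule, without overlap. The log2 fold change was 0.45 (SE 0.13, edgeR adjusted p = 0.031). The call was lost without cochlea replicate 1 (adjusted p = 0.1), without cochlea replicate 2 (0.1), without vestibule replicate 1 (0.091) and without vestibule replicate 2 (0.11), and with no filter on low counts (0.056). Zyx, on the opposite strand, overlaps 6.01% of the Epha1 exon bases.

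The other 4 EphA receptors tested were not called. Epha5 had 9.91, 11.7 and 9.21 normalised CPM in the cochlea, against 8.31, 5.55 and 6.27 in the vestibule. The libraries did not overlap, but the log2 fold change of -0.61 (SE 0.21) had an edgeR adjusted p of 0.063, which was 0.041 without vestibule replicate 1 and 0.032 with DESeq2. Epha2, an epithelial receptor, was also separated without a call, at 9.70 to 12.8 normalised CPM in the cochlea and 13.5 to 14.5 in the vestibule (edgeR adjusted p = 0.15). Epha8, an EphA receptor of the midbrain, and Epha10, which lacks kinase activity, were scarce. Epha10 had 1.59, 3.24 and 0.628 normalised CPM in the cochlea, against 1.28, 0.148 and 0.238 in the vestibule, and Epha8 had 1.80, 1.92 and 0.942 against 2.05, 0.407 and 0.516. In both genes cochlea replicates 1 and 2 and vestibule replicate 1 were the 3 highest libraries, and these were also the 3 with the highest neuronal marker sums (610, 602 and 324 normalised CPM, against 103 to 193 in the others). The part of neuronal RNA in these values was not tested.

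The makeup of the EphA family differed between the tissues. Of the summed RPKM of its 8 genes tested, Epha7 made up 35.9% ± 1.89 in cochlear and 12.1% ± 1.75 in vestibular libraries (SD, n = 3 each). Epha1 made up 15.6% ± 0.313 in cochlear and 40.9% ± 2.33 in vestibular libraries, and Epha3 14.6% ± 0.658 and 4.35% ± 0.289. The share of Epha4 was 28.7% ± 2.18 in cochlear and 32.7% ± 4.03 in vestibular libraries, and its libraries overlapped. Per length, Epha7 led in all cochlear libraries and Epha1 in all vestibular ones, closely in vestibule replicate 3 (38.5% for Epha1 and 37.3% for Epha4). In shares of normalised CPM, which leave length out, Epha4 led in the vestibule with 38.3%, against 24.8% for Epha1, and Epha7 led in the cochlea with 50.5%. The summed level of the family was 73.6 ± 10.0 RPKM in the cochlea, against 41.7 ± 4.37 in the vestibule. The length behind RPKM follows the authors' annotation, and for 4 of the 8 genes it was clearly shorter than the joined exons of GENCODE vM21. It was 3267 of 3928 bases for Epha1, 5646 of 8692 for Epha3, 6316 of 8054 for Epha4 and 10003 of 16739 for Epha5.

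**Figure D4:**
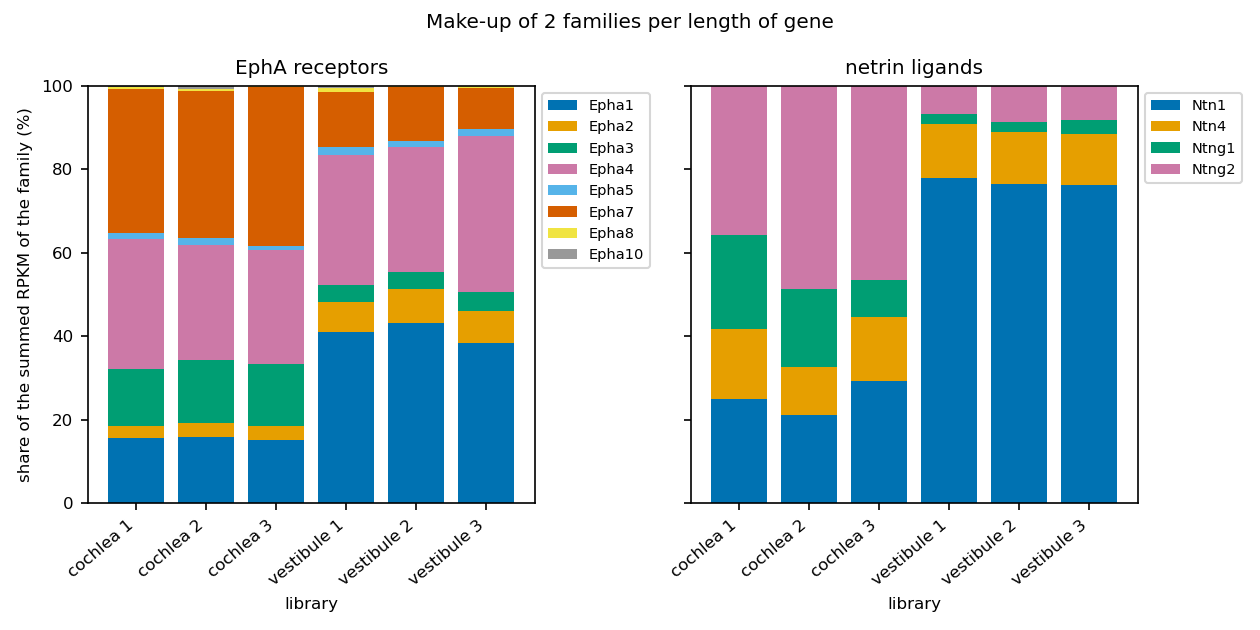
Share of each gene in the summed RPKM of its family, in percent, as 1 stacked bar per library, for the EphA receptors (left) and the netrin ligands (right). Epha7 takes a mean of 35.9% of the EphA bars in the cochlea and 12.1% in the vestibule, and Ntn1 takes 25.2% and 76.9% of the netrin ligand bars.

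Of the 5 EphB receptors, 2 were called and 3 did not pass the test. Ephb4, the venous EphB receptor and the most abundant of the family per length, had 180, 174 and 208 normalised CPM in the cochlea, against 180, 172 and 169 in the vestibule. The groups overlapped and the 95% interval of the log2 fold change was -0.39 to 0.17. Ephb4 made up 49.9% ± 1.04 of the summed EphB RPKM in the cochlea and 49.8% ± 0.391 in the vestibule. Ephb2 and Ephb3, receptors of axons and of the intestinal crypt, lay between 49.3 and 69.4 and between 75.8 and 107 normalised CPM, with intervals of -0.37 to 0.39 and -0.51 to 0.16.

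The EphB calls were for Ephb6 and Ephb1, in opposite directions. Ephb6, a receptor without kinase activity, had 44.0, 41.8 and 57.3 normalised CPM in the cochlea, against 32.0, 30.4 and 29.6 in the vestibule. The log2 fold change was -0.64 (SE 0.15, edgeR adjusted p = 0.013), with an adjusted p of 0.075 without vestibule replicate 2 and 0.052 with library totals as the only scaling. Ephb1, known for the guidance of retinal axons at the optic chiasm, had 36.4, 53.1 and 42.7 normalised CPM in the cochlea, against 56.1, 65.9 and 79.1 in the vestibule. Its lowest vestibular library was only slightly above its highest cochlear one. The log2 fold change was 0.60 (SE 0.18, edgeR adjusted p = 0.038), and the adjusted p was 0.12 without cochlea replicate 1, 0.067 without cochlea replicate 3, 0.097 without vestibule replicate 2 and 0.094 without vestibule replicate 3.

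All 3 Slit ligands had negative fold changes, and Slit1 and Slit3 were called as higher in the cochlea. Slit3 was the most abundant per length, with 67.3% of the summed Slit RPKM in the cochlea and 57.9% in the vestibule. Without regard to length, in normalised CPM, Slit3 took 46.5% and 35.9%, and Slit2 led with 52.3% and 63.5%. The length behind RPKM was 15051 bases for Slit2, against 25433 in the joined exons of GENCODE vM21. Slit3 had 80.4, 137 and 148 normalised CPM in the cochlea, against 81.9, 59.1 and 50.3 in the vestibule. Cochlea replicate 1 fell within the vestibular range, so the groups overlapped although the test was passed (log2 fold change -0.93, SE 0.26, edgeR adjusted p = 0.027). The adjusted p of Slit3 was 0.1 without cochlea replicate 2, 0.056 without cochlea replicate 3, 0.11 without vestibule replicate 2, 0.077 without vestibule replicate 3 and 0.064 with library totals as the only scaling. Slit1, the Slit most confined to the nervous system, was scarce, with 2.89, 4.0 and 1.92 normalised CPM in the cochlea, against 1.15, 0.518 and 1.07 in the vestibule. The groups did not overlap, and the log2 fold change was -1.67 (SE 0.38, edgeR adjusted p = 0.011), and it was no longer called without cochlea replicate 2 (adjusted p = 0.05 after rounding). The neuronal marker sum was also highest in cochlea replicates 1 and 2, but vestibule replicate 1 had a higher sum than cochlea replicate 3 (324 and 193 normalised CPM) and less Slit1. The part of neuronal RNA in the Slit1 value was not tested. Slit2 had 114, 105 and 194 normalised CPM in the cochlea, against 128, 110 and 96.0 in the vestibule, with full overlap apart from cochlea replicate 3. Its log2 fold change was -0.31 (95% interval -0.85 to 0.23) and turned to 0.02 without cochlea replicate 3.

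The Robo receptors split. Robo2, a Slit receptor of axons and of the kidney bud, had 105, 134 and 115 normalised CPM in the cochlea, against 40.1, 30.9 and 26.5 in the vestibule. The groups were far apart, with means of 118 ± 14.8 and 32.5 ± 6.95 (SD, n = 3 each) and a log2 fold change of -1.86 (SE 0.18, edgeR adjusted p = 0.00013). Robo1, the most abundant Robo per length, did not follow it. Its levels were 119, 217 and 207 normalised CPM in the cochlea, against 187, 134 and 124 in the vestibule, with overlap and a log2 fold change of -0.29 (95% interval -0.85 to 0.27, edgeR adjusted p = 0.42).

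Robo4, the Robo receptor of endothelium, went the other way, with 6.61, 3.36 and 6.77 normalised CPM in the cochlea, against 18.7, 13.3 and 15.0 in the vestibule. The groups did not overlap, and the log2 fold change was 1.49 (SE 0.28, edgeR adjusted p = 0.0045). Endothelial markers moved in the same direction. Their summed level was 213 to 275 normalised CPM in the cochlea and 414 to 574 in the vestibule, and 6 of 8 were called as higher in the vestibule, while 1, Emcn, was called as higher in the cochlea. The part of endothelial RNA in the Robo4 value was not tested. Robo4 and Robo3 lie side by side on chromosome 9 of GRCm38, at 37401897 to 37415115 and 37415669 to 37433246, and Robo3 stayed at 4 counts or fewer in every library. Robo2 and Robo4 were called under each of the 13 alternatives.

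Summed over families, the RPKM levels differed most for the netrin ligands, at 19.3 ± 1.76 in the cochlea and 83.4 ± 15.0 in the vestibule (SD, n = 3 each). The netrin receptors summed to 110 ± 14.3 and 75.6 ± 8.92. In these families and in the EphA receptors given above, the libraries of the tissues did not overlap. The ephrin-A ligands summed to 45.8 ± 1.09 and 50.6 ± 4.25 RPKM, the ephrin-B ligands to 68.7 ± 4.33 and 64.7 ± 5.94, and the EphB receptors to 77.8 ± 8.76 and 78.6 ± 6.75. The libraries overlapped in these sums, as they did in those of the Slits and Robos, so single ephrins and EphB receptors differed within sums that were not separated. RPKM here carry no TMM scaling, and the sums are given as descriptions without a test.

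Other genes of the same pathways were followed in a list of binding partners and a list of effectors. Of 17 partners 16 matched and 15 were tested, and 5 were called, all as higher in the cochlea (33.3%, against 27.4% of all genes tested). Rgma, a repulsive guidance molecule and ligand of neogenin, had 278, 378 and 358 normalised CPM in the cochlea, against 114, 103 and 104 in the vestibule (log2 fold change -1.66, SE 0.15, edgeR adjusted p = 8.7e-05). Flrt2, a ligand of Unc5 receptors, had 102, 102 and 100 against 73.6, 56.6 and 45.3 (log2 fold change -0.79, edgeR adjusted p = 0.01). Draxin, a secreted binder of netrins and Dcc, had 9.24, 13.2 and 14.1 against 8.42, 7.54 and 6.58 (log2 fold change -0.69, edgeR adjusted p = 0.039). Their relatives in the list were not called. Rgmb had a log2 fold change of 0.27 (edgeR adjusted p = 0.12), Flrt1 of 0.82 (0.17) and Flrt3 of 0.01 (0.99), and these are named after their values were seen. Lrrc4c, a ligand of netrin-G1, and Gpc1, a glypican that binds Slits, were the other partners called, and both are named after their values were seen (log2 fold changes -0.66 and -0.57). The 5 partner calls became 3 without cochlea replicate 2, 3 without vestibule replicate 1, 1 without vestibule replicate 2 and 3 without vestibule replicate 3.

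The effectors act inside the cell, below the receptors. Of 26, 25 were tested, and 5 were called as higher in the cochlea and 4 as higher in the vestibule (36.0%, against 27.4% of all genes tested). Chn2, a Rac GTPase-activating protein of the chimaerin family, had 3.05, 4.22 and 2.96 normalised CPM in the cochlea, against 9.51, 10.0 and 11.4 in the vestibule (log2 fold change 1.59, SE 0.21, edgeR adjusted p = 0.00068). Tiam1, a Rac exchange factor, had a mean of 40.7 ± 9.54 in the cochlea and 81.4 ± 14.5 in the vestibule (SD, n = 3 each, log2 fold change 1.0, edgeR adjusted p = 0.0068). Vav3, an exchange factor recruited by Eph receptors, had 39.5, 43.4 and 52.7 in the cochlea, against 23.4, 24.3 and 24.2 in the vestibule (log2 fold change -0.91, SE 0.14, edgeR adjusted p = 0.0016). Its paralogue Vav2 went the opposite way, with 16.9, 20.7 and 28.7 against 46.6, 47.3 and 31.1 (log2 fold change 0.91, SE 0.23, edgeR adjusted p = 0.02), and is named after its values were seen.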

How the data were processed

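The authors' reads were aligned with TopHat2 2.1.0 to GRCm38 and counted per Ensembl gene with HTSeq 0.5.4p5, per the submitters' processing notes, which also name SAMtools 0.1.18 and edgeR 3.4.2. The authors deposited raw counts per library and a matrix of log2 RPKM for genes past their filter, scaled by library size without TMM. Libraries were made with a stranded kit, and the strand setting of the counting is not given in the sources used here. The 5 summary lines of each count file, 18.5% to 20.6% of its counts, were left out. Replicates all differed by more than sampling noise (chi-square per degree of freedom 28.6 to 99.6 within a tissue, 158 to 304 between).

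The 14723 genes that reached 1 CPM in at least 3 libraries entered the quasi-likelihood test of edgeR 4.0.16 in R 4.3.3, after TMM scaling and without a block, and p-values were adjusted by Benjamini-Hochberg and called at an FDR of 0.05. Standard errors are the log2 fold change divided by the square root of the F statistic. Normalised CPM are TMM-scaled. RPKM were used only for ratios and shares between genes. Symbols were matched to 37607 identifiers, and Ntn3 of the partner list found no match. Coordinates and exon overlaps come from GENCODE vM21 on GRCm38, which is not the annotation of the counts. The script was tested on simulated data first. An exact permutation test of 3 against 3 libraries cannot go below p = 0.1 and was not used.

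The genes and lists were chosen with earlier results of these data known. Values per library are given for called genes whose libraries did not overlap and for the most abundant gene of each of 8 families, which was the rule set for these genes. Those of Ntng1, Ntng2, Unc5c, Epha5, Epha8, Epha10 and Slit2 fall outside the rule and were added after their values were seen. The counts of Epha6 and Robo3, which were below the filter, also fall outside it. By the same rule the 3 called genes with the largest change are named from the partner and effector lists. Marker lists of other cells were also summed. In normalised CPM, Schwann cell markers summed to 690 to 814 in the cochlea and 1050 to 1368 in the vestibule (2 of 7 called, both in the vestibule), mesenchyme to 5338 to 6062 and 7630 to 8717 (2 of 9 called as higher in the cochlea and 4 in the vestibule), macrophages to 106 to 123 and 433 to 500 (6 of 6 called as higher in the vestibule), and cartilage and bone to 10702 to 18166 and 12910 to 15096 (1 of 8 called as higher in the cochlea and 5 in the vestibule). Alternatives were DESeq2 1.42.0, limma-voom (limma 3.58.1), other scalings and filters, a replicate block, and each library left out in turn, which leaves 2 libraries in a tissue.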

Additional observations from a re-analysis of the deposited data

How the results depend on the processing

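Of the 18 guidance genes called, 10 were called under each of the 13 alternatives (Efna5, Epha3, Epha4, Epha7, Robo2, Robo4, Ntn1, Ntn4, Unc5b and Unc5d), and of the 19 not called, 3 were called under at least 1. Library totals as the only scaling shifted the median of all genes to 0.13. The ligands called as higher in the cochlea then went from 4 to 2 and the receptors from 8 to 6. With this scaling, the log2 fold changes of Efnb1 and Ephb4 turned to 0.056 and 0.011. That of Ephb2 turned to -0.0076 with DESeq2, to -0.0076 with median-of-ratios size factors and to -0.0074 with no filter, and lay between -0.085 and 0.17 with 1 library left out. That of Slit2 turned to 0.022 without cochlea replicate 3. None of these values was called, and the cause was not tested.

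With 1 library left out, the ligands called as higher in the cochlea ranged from 1 to 3 and the receptors called as higher in the vestibule from 1 to 2. All genes called ranged from 925 to 1863 in the cochlea and from 1342 to 2694 in the vestibule, partners from 1 to 5 and effectors from 6 to 10. These fits have fewer samples. Deviations from the tissue mean correlated at -0.18, -0.26 and -0.47 between equal replicate numbers, and no library correlated best with its own number. With 3 libraries per tissue, these values cannot tell whether libraries of equal number share mice, and the labels do not say so. With a replicate block, the ligands called as higher in the cochlea were 0 (4 without it). The receptors called as higher in the cochlea were 6 (8), with Ephb6 and Neo1 lost, and those called as higher in the vestibule 1 (3). All genes called in the cochlea were 1009 (1711), the partners called 2 (5) and the effectors 5 (9). Epha8 and Epha10 fell below the filter in 3 of the fits without a library and have no value there. Slit1, Dcc, Epha8 and Epha10 had low counts and wide intervals, and the cause of the width was not tested. No conclusion on equal levels follows from a missed threshold.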
